A study of Mus musculus with 13 samples.

Results

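Polycomb and trithorax proteins write, read and erase histone marks, and the chromatin at 9 of their own genes was followed from neural stem cells (NSCs) through oligodendrocyte precursor cells (OPCs) to newly formed oligodendrocytes (NFOs). The genes were Ezh2, Ezh1, Eed and Suz12 of Polycomb repressive complex PRC2, Bmi1, Cbx2 and Cbx8 of the complex PRC1, Kdm6b and Kmt2a. They were taken by name and are 9 of 21951 protein-coding genes, and of 55450 genes in all, in the GENCODE M21 annotation of mm10. Listed H3K4me3 and H3K27me3 peaks were assigned to a gene when they lay within 2 kb of any of its transcription start sites (TSSs) or in the gene. OLIG2 peaks were assigned when they lay in the gene or in the 5 kb upstream of it. By this rule the 9 genes held 61 listed peaks in 8 lists, of which 53 were called peaks, that is, they passed the filter of the study. For histone marks the filter was a false discovery rate (FDR) below 0.05 with a fold enrichment over control above 3.5, and for OLIG2 a fold enrichment above 5.

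ChIP-Seq libraries for both marks came from all 3 cell types, OLIG2 ChIP-Seq libraries from OPCs and NFOs, and OLIG2 RIP-Seq with an IgG control was added, with 1 library per group and untreated cells throughout. NSCs were a cultured, bought-in stock from cortices of CD-1 embryos (E14.5) in the protocols, while the strain label reads C57BL/6. OPCs and NFOs were immunopanned from C57BL/6 brains taken at postnatal day 7, after removal of microglia and endothelial cells, first on an antibody against PDGFRα and then on one against GalC, so NSCs differed from both in culture, age and possibly strain as well as in stage. The RIP-Seq samples carry the label of NFOs, whereas the Methods describe the assay in NSCs. No genotype is named for any sample, and the number of animals behind a library is not given in the sources used here.

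PRC2 places the repressive mark H3K27me3 through its catalytic subunit EZH2 or EZH1, and PRC1 binds that mark through a CBX protein and acts on histone H2A. KDM6B removes H3K27me3, and KMT2A, a mammalian counterpart of the fly protein Trithorax, places H3K4me3, the mark of active and poised promoters. Promoters that carry both marks are called bivalent and are common at developmental regulators, and EZH2 is known for its role in the choice of neural stem cells between glial and neuronal fates.

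The antibody field of each of the 6 histone libraries names the other mark than its title does, and the titles were used. Called H3K4me3 peaks by title lay near a TSS of 62.7%, 60.4% and 38.6% of protein-coding genes in NSCs, OPCs and NFOs, and called H3K27me3 peaks near 9.5%, 12.8% and 7.67%. The lists differed in size and in peak width. They held 8589 to 26385 called histone peaks, and the median width of called H3K4me3 peaks was 939, 1048 and 268 bp in the order of the stages. The NFO lists held fewer called peaks than the OPC lists for both marks. Depth is unknown, so a peak that is absent from a list was not called there and may lie below the detection of that library. Called H3K4me3 peaks marked 5 of 5 OPC marker genes in OPCs, but also 5 of 5 in NSCs and 4 of 5 in NFOs, so this count does not tell the stages apart. Of 7 NFO marker genes, Mbp, Mag and Mog among them, 0 had a called H3K4me3 peak in NFOs and 3 had one in OPCs, so the labelled identity of NFOs was not seen at its defining genes in this list. By stage in the order NSC, OPC and NFO, a called H3K4me3 peak was at 4, 4 and 2 of 4 neuron markers, at 0, 1 and 0 of 4 microglia markers, at 1, 1 and 1 of 3 endothelial markers and at 2, 1 and 0 of 3 astrocyte markers.

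DNA upstream of the TSS is shown for 3 of the genes whose TSS regions changed state between the stages. In these RefSeq sequences (mm10), read 5′ to 3′ along the gene and ending at the base before the TSS, CG dinucleotides are in capitals. The stretch of Suz12 is chr11:79992856-79993105 (plus strand), that of Bmi1 chr2:18676768-18677017 (plus strand) and that of Cbx8 chr11:119040970-119041163 (minus strand).
Suz12: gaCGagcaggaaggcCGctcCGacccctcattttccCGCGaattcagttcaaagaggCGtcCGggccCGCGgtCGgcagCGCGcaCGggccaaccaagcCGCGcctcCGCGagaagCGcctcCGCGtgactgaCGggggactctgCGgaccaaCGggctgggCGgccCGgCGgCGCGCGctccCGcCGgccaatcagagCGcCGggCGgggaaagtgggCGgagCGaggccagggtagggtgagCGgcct
Bmi1: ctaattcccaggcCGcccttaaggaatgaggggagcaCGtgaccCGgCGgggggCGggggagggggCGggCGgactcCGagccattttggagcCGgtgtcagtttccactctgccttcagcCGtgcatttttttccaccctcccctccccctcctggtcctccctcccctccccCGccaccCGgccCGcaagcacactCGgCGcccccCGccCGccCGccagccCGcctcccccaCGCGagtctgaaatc
Cbx8: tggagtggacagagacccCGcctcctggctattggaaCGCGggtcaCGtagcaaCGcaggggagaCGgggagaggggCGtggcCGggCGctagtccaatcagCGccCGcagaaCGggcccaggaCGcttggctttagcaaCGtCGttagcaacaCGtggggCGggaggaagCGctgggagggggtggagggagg
All of them are rich in CG, with 37 in the 250 bases of Suz12, 21 in the 250 bases of Bmi1 and 18 in the 194 bases of Cbx8. Over the 300 bases of the RefSeq promoter table, from 250 before to 50 after the start, 7 of the 9 genes had an entry and held from 17 CG (Eed) to 41 CG (Suz12). The median over 20150 protein-coding promoters was 14. The observed over expected CG of the 7 genes ran from 0.708 to 1.09 against a median of 0.588, so each of them lay above the median promoter in both measures.

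The 4 intronic OLIG2 called peaks that lay in these genes are shown next, since none of the 9 genes carried one at its outermost TSS. The capitals mark E-boxes with the letters CANNTG, the general motif of basic helix-loop-helix factors such as OLIG2, and each sequence is the plus strand of mm10, 5′ to 3′. They come from Ezh1 in OPCs (chr11:101208892-101209121), Eed in NFOs (chr7:89961348-89961583), Suz12 in NFOs (chr11:80016593-80016828) and Kmt2a in NFOs (chr9:44860815-44861050).
Ezh1: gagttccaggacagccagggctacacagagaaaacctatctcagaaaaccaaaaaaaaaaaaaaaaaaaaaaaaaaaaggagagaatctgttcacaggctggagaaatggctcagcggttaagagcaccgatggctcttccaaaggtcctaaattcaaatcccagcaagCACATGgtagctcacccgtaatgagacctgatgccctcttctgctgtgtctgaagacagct
Eed: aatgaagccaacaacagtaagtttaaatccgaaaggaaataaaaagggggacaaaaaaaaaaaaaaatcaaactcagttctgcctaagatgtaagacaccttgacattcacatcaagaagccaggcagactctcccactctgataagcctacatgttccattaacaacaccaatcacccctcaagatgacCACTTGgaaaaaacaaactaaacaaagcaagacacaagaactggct
Suz12: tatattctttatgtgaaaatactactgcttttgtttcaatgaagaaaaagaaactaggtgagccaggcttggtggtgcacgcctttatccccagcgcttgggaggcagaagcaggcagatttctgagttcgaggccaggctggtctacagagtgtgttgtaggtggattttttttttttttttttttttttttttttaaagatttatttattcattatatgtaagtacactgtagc
Kmt2a: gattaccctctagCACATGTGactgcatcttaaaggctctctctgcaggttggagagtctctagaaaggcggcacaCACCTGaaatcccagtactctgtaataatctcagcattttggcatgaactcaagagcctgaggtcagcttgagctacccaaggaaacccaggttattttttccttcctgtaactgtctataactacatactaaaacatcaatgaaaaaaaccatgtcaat
Ezh1 held 1 such E-box, Eed 1, Suz12 0 and Kmt2a 3, a pair of which overlap. This motif, which reads the same on both strands, was present in 70.3% of all OLIG2 called peaks in OPCs and 69.2% in NFOs.

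In NSCs every one of the 9 genes carried called H3K4me3 near a TSS, and 8 of them carried it without H3K27me3. Of all protein-coding genes, 62.7% had a called H3K4me3 peak there, and 55.6% were in the state with H3K4me3 alone (K4 only). In OPCs all 9 genes kept a called H3K4me3 peak, against 60.4% of protein-coding genes, and in NFOs 6 of 9 did, against 38.6%. Those with a peak in all 3 stages were Ezh2, Eed, Kdm6b, Bmi1, Cbx8 and Kmt2a, 6 of 9, where the share of protein-coding genes was 37.2%. H3K27me3 took another course, with 1 gene in NSCs (Eed), 3 in OPCs and 3 in NFOs, and in both later stages the 3 were the PRC1 genes Bmi1, Cbx2 and Cbx8. The matching shares of protein-coding genes were 9.5%, 12.8% and 7.67%. H3K27me3 called in OPCs and NFOs and not in NSCs was found at 3.15% of protein-coding genes and at these 3 of 9. The count depended on the filter. With a fold enrichment above 5, H3K27me3 in NFOs was called at 0 of the 9 genes, and with all listed peaks Cbx2 had H3K27me3 in NSCs too. With 1 library per stage there is no replicate error for any of these counts and no test was made.

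**Figure D1:**
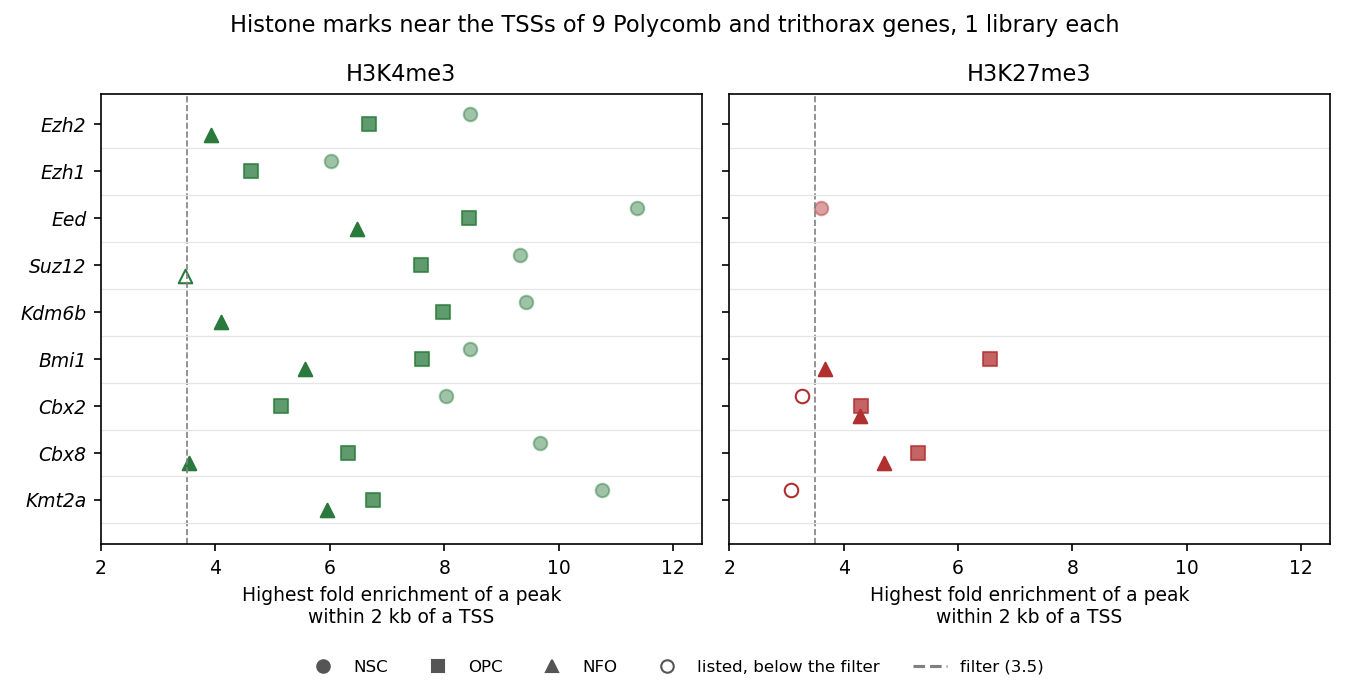
Highest fold enrichment over control of an H3K4me3 (left) or H3K27me3 (right) peak within 2 kb of a TSS of each gene, with circles for NSCs, squares for OPCs and triangles for NFOs, 1 library each; filled symbols passed the filter, open ones were listed below it, and the dashed line is the fold enrichment of 3.5. H3K4me3 lay highest in NSCs at all 9 genes, from 6.03 at Ezh1 to 11.4 at Eed, and filled H3K27me3 symbols of OPCs and NFOs stand only at Bmi1, Cbx2 and Cbx8.

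Ezh2 encodes the main H3K27 methyltransferase of dividing cells (chr6:47530139-47595341, minus strand, 65.2 kb). H3K4me3 near its TSS formed 1 peak in each list, whose fold enrichment fell from 8.45 in NSCs to 6.69 in OPCs and 3.92 in NFOs. The peak narrowed from 3761 bp in NSCs to 2817 bp in OPCs, then to 1278 bp in NFOs. Both measures fell at each step, and in NFOs the peak lay 68 bp from the nearest TSS and covered none. Ezh2 had no listed H3K27me3 peak by the rule and no OLIG2 called peak in any list, and it was K4 only at all stages.

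Ezh1 encodes the other H3K27 methyltransferase, the form that predominates in cells that no longer divide (chr11:101191115-101226463, minus strand, 35.3 kb). It had the weakest H3K4me3 of the 9 genes in NSCs and in OPCs, with 6.03 in NSCs over 1909 bp and 4.62 in OPCs over 838 bp. In NFOs no H3K4me3 peak was listed by the rule. In NSCs an intronic H3K27me3 peak (chr11:101220809-101221103) had a fold enrichment of 3.995, away from the TSS. The methyltransferase pair thus differed in NFOs in these lists, with a called peak at Ezh2 and none listed at Ezh1, though Ezh2 was itself close to the filter.

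Eed encodes the subunit that binds H3K27me3 and stimulates the enzyme (chr7:89954654-89980983, minus strand, 26.3 kb). Near a TSS its H3K4me3 was the highest of the 9 genes in every stage, at 11.4 (NSCs), 8.43 (OPCs) and 6.48 (NFOs). The widths were 3175, 2308 and 2255 bp in the same order. Eed was the only one of the 9 with called H3K27me3 near a TSS in NSCs, a peak of 276 bp with a fold enrichment of 3.61 at chr7:89973060-89973335, 762 bp from a TSS inside the gene. That value lies just inside the filter, and the peak overlapped a small H3K4me3 peak by 161 bp. Another small pair overlapped by 213 bp upstream of the gene, 1995 bp from its TSS. A noncoding gene, E230029C05Rik, lies on the other strand with its nearest TSS 228 bp from the Eed TSS, so the main H3K4me3 peak covers both.

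Suz12 encodes the scaffold subunit that PRC2 needs for its stability (chr11:79993106-80034123, plus strand, 41.0 kb). H3K4me3 at its TSS reached 9.33 in NSCs over 4250 bp and 7.60 in OPCs over 1519 bp. In NFOs a peak of 461 bp was listed with a fold enrichment of 3.47, just outside the filter. Counted with all listed peaks, Suz12 was K4 only in NFOs as well. It was the gene that lost most width from NSCs to OPCs among the PRC2 genes, with a ratio of 0.357. Listed H3K27me3 peaks in the gene in NSCs had fold enrichments of 2.91 and 2.64 and did not pass the filter.

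Kdm6b encodes the H3K27me3 demethylase also known as JMJD3 (chr11:69398508-69413675, minus strand, 15.2 kb). H3K4me3 near its outermost TSS did not cover that TSS in any list but lay on both sides of it in NSCs and mainly downstream of it afterwards. In NSCs a peak of 4704 bp in the gene had a fold enrichment of 9.42, and one of 5629 bp upstream had 6.57. The peak in the gene was 4140 bp wide with 7.99 in OPCs and 2724 bp wide with 4.09 in NFOs. At each stage the widest peak near its TSSs, which in NSCs was the upstream one, lay at the 98.2nd percentile of width or above among protein-coding genes with called H3K4me3, and the fold enrichment fell from the 63.9th percentile in NSCs and the 75.0th in OPCs to the 20.4th in NFOs. No H3K27me3 peak was listed for Kdm6b. Because its peaks lay over 1 kb from the TSS in OPCs and NFOs, Kdm6b had no mark at those stages when 1 kb in place of 2 kb was used.

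Bmi1 encodes a ring finger subunit of PRC1 that neural stem cells need for self-renewal (chr2:18677018-18686629, plus strand, 9.61 kb). Its H3K4me3 had fold enrichments of 8.45, 7.61 and 5.56 in the order of the stages. The widths were 5435, 1564 and 1766 bp, so the broad domain of NSCs was absent from both later lists, with an OPC to NSC ratio of 0.288. It was the only gene of the 6 with a ratio whose H3K4me3 was wider in NFOs than in OPCs, at 1.13. No H3K27me3 peak was listed by the rule in NSCs. In OPCs peaks of 199 bp with 6.57 (chr2:18678106-18678304) and of 385 bp with 3.53 (chr2:18680168-18680552, just inside the filter) were called, the first within the H3K4me3 peak. In NFOs a single peak of 2205 bp with 3.67 (chr2:18678028-18680232) overlapped H3K4me3 by 749 bp. Bmi1 was thus K4 only in NSCs, mixed in OPCs and bivalent in NFOs. Mixed means that marks of more than 1 class lay near its TSSs.

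Past the end of Bmi1, outside the rule, H3K27me3 was stronger than at its TSS. In OPCs, peaks of 7.43 (chr2:18687166-18688867) and 8.30 (chr2:18690657-18694199) lay between Bmi1 and Spag6, a gene for a protein of motile cilia. In NFOs the corresponding peaks had 6.93 (chr2:18688244-18688854) and 4.64 (chr2:18690774-18694133). In NSCs a peak of 383 bp with 5.55 (chr2:18691839-18692221) was called in that stretch and overlapped H3K4me3 of 337 bp with 7.296 (chr2:18691906-18692242). The longer OPC and NFO peaks reached the start of Spag6, so the H3K27me3 there cannot be assigned to Bmi1. Upstream, Commd3 ends 787 bp before Bmi1 on the same strand.

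Cbx2 encodes a PRC1 subunit that reads H3K27me3 and compacts chromatin (chr11:119022962-119031270, plus strand, 8.31 kb). H3K4me3 at its TSS had 8.03 over 2509 bp in NSCs and 5.14 over 1353 bp in OPCs, and no peak was listed by the rule in NFOs. H3K27me3 ran the other way. In NSCs it was listed at 3.28 over 287 bp, below the filter, and it was called at 4.30 over 2352 bp in OPCs (chr11:119020354-119022705) and at 4.29 over 2076 bp in NFOs (chr11:119020372-119022447). These peaks lay upstream of the gene, nearly in the same place in both later stages. Cbx2 passed from K4 only to bivalent to K27 only. The bivalent call in OPCs rested on 108 bp where the edges of the H3K4me3 and H3K27me3 peaks met.

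Cbx8, of the same family, lies 5035 bp from Cbx2 on the other strand (chr11:119036305-119040969, minus strand, 4.67 kb). Its H3K4me3 had 9.67, 6.32 and 3.54 in the order of the stages, over 2341, 1892 and 1313 bp, and the NFO value lies just inside the filter. Upstream of the TSS, H3K27me3 formed a peak of 10198 bp with 5.30 in OPCs (chr11:119041808-119052005). It was wider than at 95.6% of the protein-coding genes with called H3K27me3 in OPCs. In NFOs the same stretch held peaks of 1958 bp with 4.71, 1367 bp with 4.15 and 3863 bp with 5.32, of which the first was within 2 kb of the TSS, and in NSCs it held 1 called peak of 959 bp with 4.0, farther than 2 kb. Cbx8 passed from K4 only to bivalent, on an overlap of 249 bp, to mixed, since the marks no longer overlapped in NFOs.

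At the 3′ end of Cbx8 called peaks of both marks overlapped in OPCs and in NFOs. The peaks come from separate libraries of many cells, so they do not show both marks on the same DNA molecule. H3K27me3 there reached 13.0 in OPCs (chr11:119036957-119038357, the 99.3rd percentile of the list) and 7.34 in NFOs (chr11:119036958-119038340, the 98.5th percentile). H3K4me3 there had 6.99 in NSCs, 5.19 in OPCs, and 10.2 and 7.95 in NFOs. It was thus the strongest H3K27me3 in any of the 9 genes, and H3K4me3 in NFOs was higher there than at any TSS of the 9 genes. Between Cbx8 and Cbx2, outside the rule, a further pair had H3K27me3 of 9.84 in OPCs and 6.10 in NFOs with H3K4me3 of 6.83 and 6.24, and in NSCs H3K4me3 of 7.48 alone. At both places the H3K4me3 and H3K27me3 peaks of a stage began within 1 bp of each other, in OPCs and in NFOs. Over the genome an edge shared within 2 bp was found for 26.9% of overlapping pairs in OPCs, 36.9% in NFOs and 1.98% in NSCs. The overlaps at Bmi1, at Cbx2, at Eed and at the TSS of Cbx8 shared no edge.

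**Figure D2:**
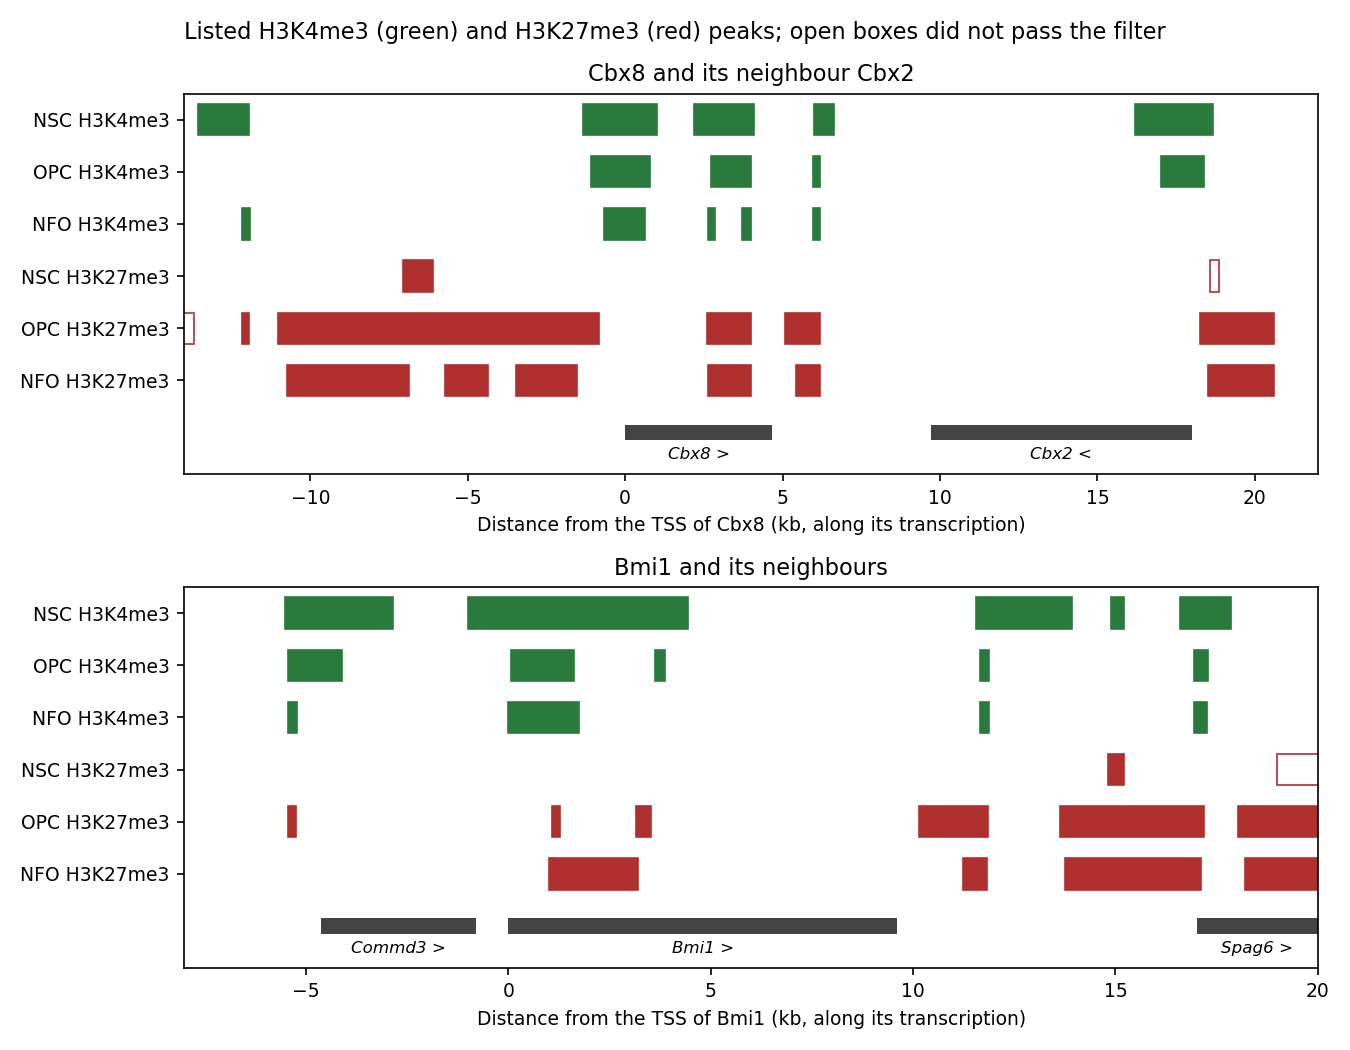
Listed H3K4me3 (green) and H3K27me3 (red) peaks in 6 lists along Cbx8 with Cbx2 (top) and along Bmi1 (bottom), by distance in kb from the TSS of Cbx8 or Bmi1; filled boxes passed the filter, open ones did not, and grey bars are genes with the direction of transcription. The H3K27me3 peak of 10198 bp in OPCs upstream of Cbx8 and the stacked marks at its 3′ end stand out at the top, and the loss of width of Bmi1 H3K4me3 from 5435 bp in NSCs to 1564 bp in OPCs at the bottom.

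Kmt2a encodes the H3K4 methyltransferase MLL1, which neural stem cells of the postnatal brain need to make neurons (chr9:44803355-44881296, minus strand, 77.9 kb, the longest of the 9 genes). Its H3K4me3 was the widest of the 9 in NSCs and in OPCs, at 5898 bp and 5645 bp, and was 1344 bp in NFOs. Its fold enrichment went from 10.8 (NSCs) through 6.75 (OPCs) to 5.95 (NFOs). The OPC peak was wider than at 99.5% of protein-coding genes with called H3K4me3. The NFO peak (chr9:44877987-44879330) began at the same base as the OPC peak but ended 1536 bp short of the nearest TSS, on a coding exon, so no called H3K4me3 covered a TSS of Kmt2a in NFOs. In NSCs an H3K27me3 peak over the same exon was listed at 3.07, below the filter, and an intronic one was called at 3.54. An antisense gene, AC061963.1 (chr9:44877891-44884397, plus strand), overlaps the start of Kmt2a, and its nearest TSS lies 432 bp from the Kmt2a TSS. Its outermost start lies inside Kmt2a, close to where the NFO H3K4me3 peak begins. That NFO peak thus cannot be assigned to Kmt2a alone.

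Over the 9 genes the median of the highest H3K4me3 fold enrichment was 9.33 for NSCs, 6.75 for OPCs and, for the 6 that had a called peak, 4.83 for NFOs. The medians over all protein-coding genes with a called peak were 8.53, 6.50 and 5.43. From NSCs to OPCs the fold enrichment was lower at 9 of 9 genes with a median ratio of 0.767, and over all protein-coding genes with a peak in both lists it was lower at 82.6% with a median ratio of 0.778. The fall at the 9 genes was thus close to that of the lists as a whole. From OPCs to NFOs it was lower at 6 of 6 genes with a median ratio of 0.658, against 66.0% and 0.820. Widths were above the median of protein-coding genes at 8 of 9 genes in NSCs (all but Ezh1), 7 of 9 in OPCs (all but Ezh1 and Cbx2) and 6 of 6 in NFOs. The median widest peak was 3761, 1892 and 1555 bp by stage, against 2190, 1374 and 602 bp over protein-coding genes. From OPCs to NFOs the width ratio had a median of 0.676 at the 6 genes and of 0.391 over protein-coding genes. The genes that passed the filter in NFOs are those that stayed above it, so these NFO medians leave out Ezh1, Suz12 and Cbx2. By the peak names, reads were single-end for NSCs and paired-end for OPCs and NFOs, and the part of this in the ratios was not tested.

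**Figure D3:**
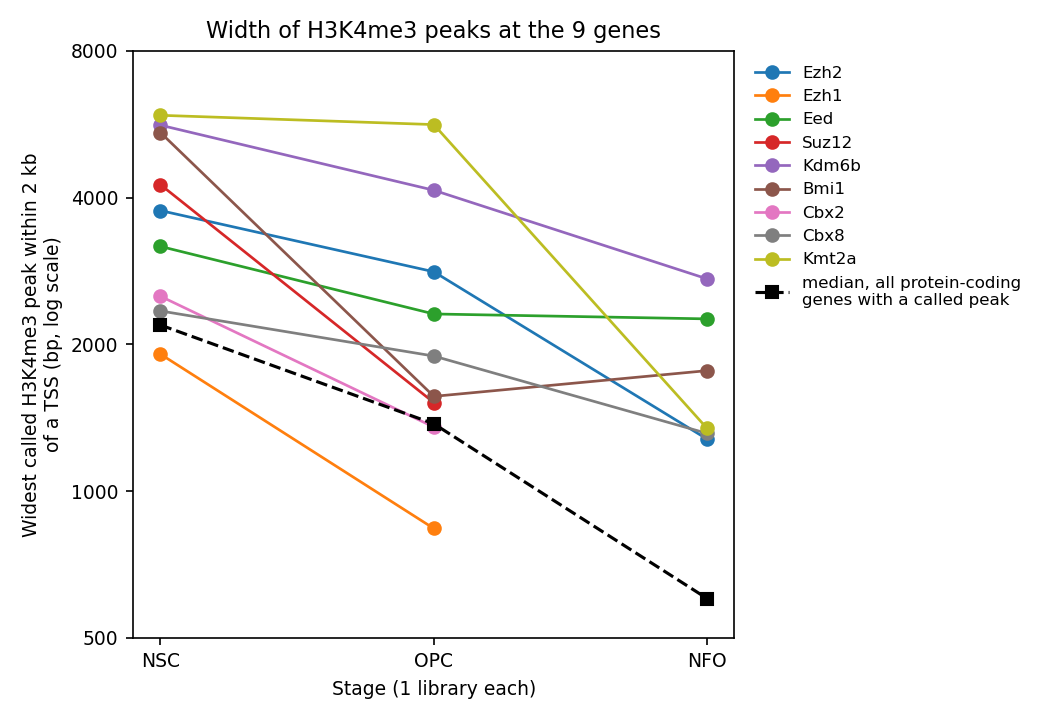
Width in bp (log scale) of the widest called H3K4me3 peak within 2 kb of a TSS at each of the 9 genes by stage, 1 library each, with the median over protein-coding genes that had a called peak as a dashed line. Kmt2a stayed near its NSC width in OPCs, at 5645 bp, and dropped to 1344 bp in NFOs, while the points of Ezh1, Suz12 and Cbx2 end at OPCs.

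Bivalent domains, that is, an overlap of called H3K4me3 and H3K27me3 peaks by at least 1 bp near a TSS, were present at 1 gene in NSCs (Eed), 3 in OPCs (Bmi1, Cbx2 and Cbx8) and 1 in NFOs (Bmi1). Among protein-coding genes 5.64%, 4.8% and 2.72% had such a domain. By the state of the whole TSS region, in which a bivalent gene has no other class of peak, NSCs had 8 K4 only genes and Eed as mixed. The shares of protein-coding genes in NSCs were 55.6% K4 only and 3.79% mixed. In OPCs 6 were K4 only, Cbx2 and Cbx8 were bivalent and Bmi1 was mixed, against 51.7%, 2.62% and 6.32% of protein-coding genes. In NFOs Ezh2, Eed, Kdm6b and Kmt2a were K4 only, Bmi1 was bivalent, Cbx2 was K27 only, Cbx8 was mixed, and Ezh1 and Suz12 had neither mark. K27 only in NFOs was the state of 3.86% of protein-coding genes, bivalent that of 1.38%, mixed that of 2.42% and neither mark that of 57.2%. Among the 9 genes, the 4 K4 only genes of NFOs were thus PRC2 genes, the demethylase and the trithorax gene, with none of PRC1. K4 only in NFOs was the state of 35.1% of protein-coding genes. It was the state of 64.6% of the other Polycomb and trithorax genes listed below, PRC1 genes such as Ring1, Rnf2 and Cbx6 among them. In that list 14 of 19 PRC1 genes and 3 of 8 PRC2 genes had called H3K4me3 near a TSS in NFOs. The lack of PRC1 was thus limited to the 9 genes.

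**Figure D4:**
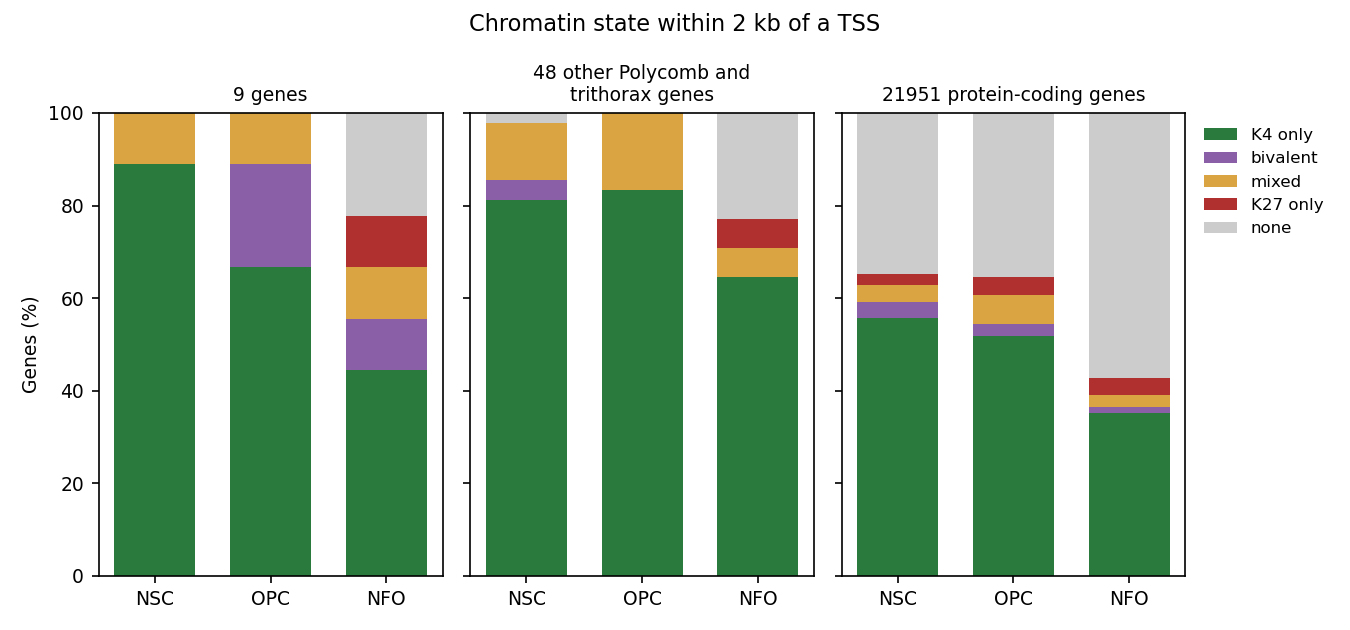
Share of genes (%) in each chromatin state within 2 kb of a TSS in NSCs, OPCs and NFOs, 1 library per mark and stage, for the 9 genes, 48 other Polycomb and trithorax genes and 21951 protein-coding genes; mixed means peaks of more than 1 class. K4 only falls from 8 to 6 to 4 of the 9 genes, and the bivalent and K27 only parts of the 9 genes in OPCs and NFOs are Bmi1, Cbx2 and Cbx8 alone.

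OLIG2, the factor that specifies the oligodendrocyte lineage, had called peaks at 2 of the 9 genes in OPCs (Ezh1 and Kdm6b) and at 3 in NFOs (Eed, Suz12 and Kmt2a). Of protein-coding genes 14.9% had one in OPCs and 25% in NFOs. No gene had one in both cell types, against 8.27% of protein-coding genes. Peaks of the other cell type were far away, with the nearest at 10218 bp from the Kdm6b peak and at 18429 bp or more from the others.

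The Kdm6b peak in OPCs was the strongest, with a fold enrichment of 13.8, the 84.9th percentile of the listed OPC peaks (chr11:69399293-69399522, in an exon near the 3′ end, 14267 bp from the outermost TSS). Its position coincided with an H3K4me3 peak of NSCs listed at 3.29, below the filter. Tmem88 (chr11:69396519-69398234), on the same strand as Kdm6b, starts 274 bp past the end of Kdm6b. The OLIG2 peak thus also lies upstream of Tmem88 and cannot be assigned to Kdm6b alone. The Ezh1 peak shown above had 8.99 and lay in an intron, 17456 bp from the outermost TSS and 398 bp from a TSS inside the gene. In NFOs the Eed peak had 9.61, the Suz12 peak 6.82 and the intronic Kmt2a peak 6.86. A second Kmt2a peak (chr9:44803248-44803483) had 8.52 and lay across the 3′ end of the gene, which ends 283 bp from its neighbour Ttc36. Ttc36 (chr9:44799397-44803072) is also on the minus strand, so this peak lies just upstream of its start and cannot be assigned to Kmt2a alone. These NFO values stood between the 35.6th and the 64.3rd percentile of the listed NFO peaks.

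**Figure D5:**
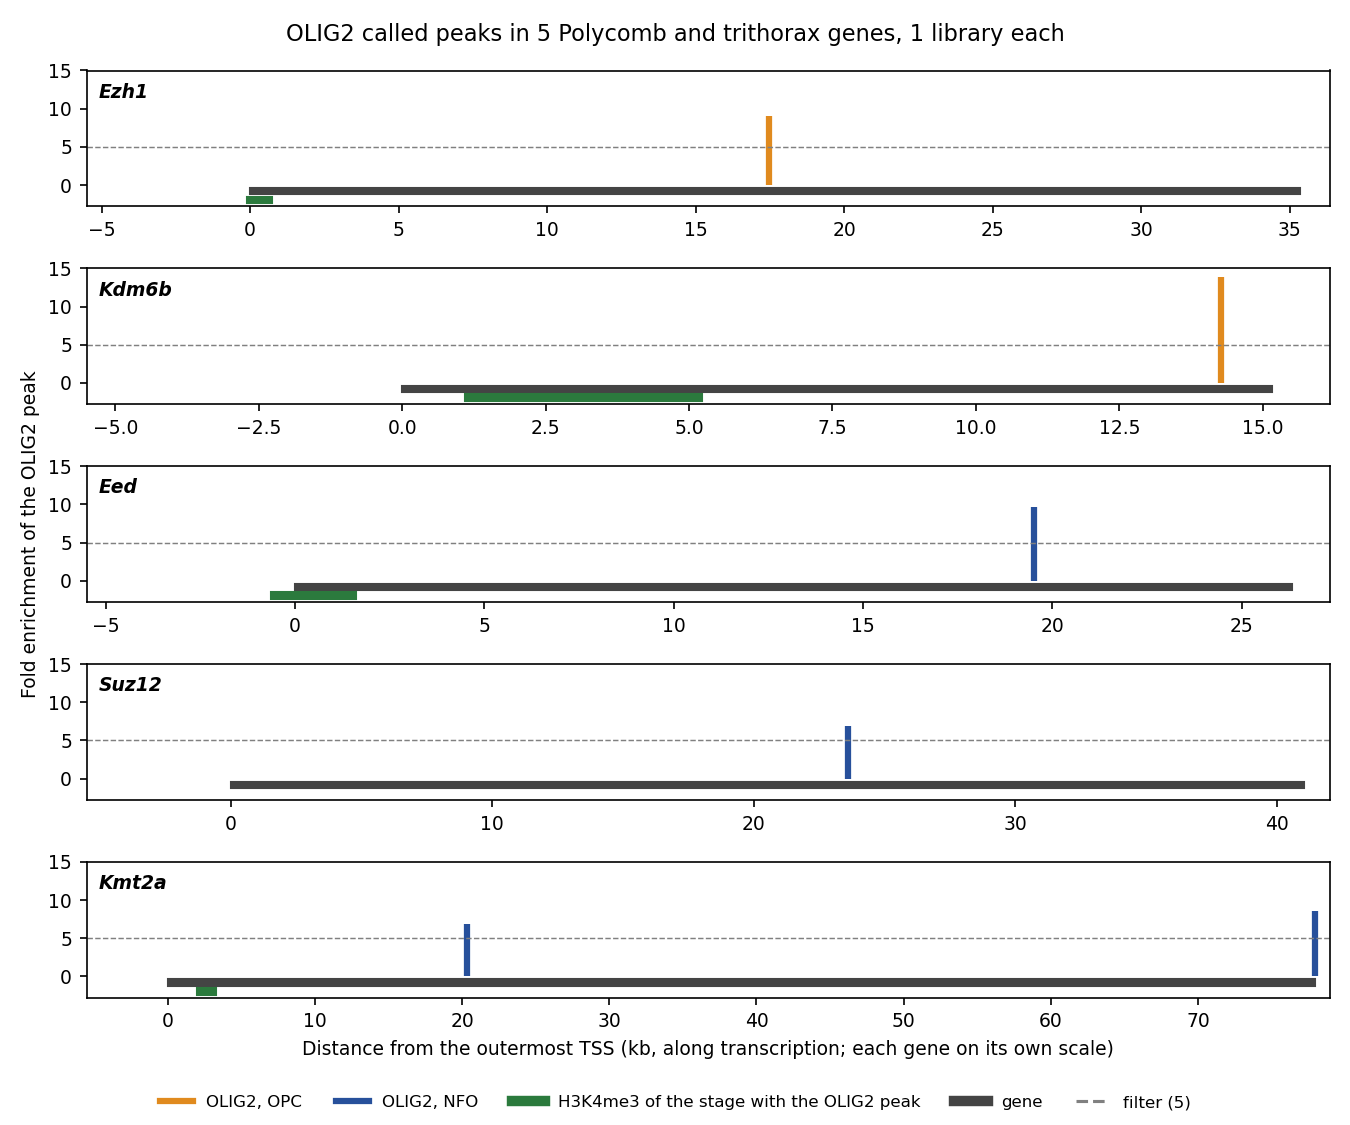
OLIG2 called peaks (bars, fold enrichment over control) in OPCs (orange) and NFOs (blue) by distance in kb from the outermost TSS of 5 genes, 1 library per cell type, with the gene in grey, the called H3K4me3 peaks of the cell type that has the OLIG2 peak in green and the filter of 5 as a dashed line. All 6 OLIG2 peaks lie 14267 bp or farther from the outermost TSS and apart from the H3K4me3 peaks, and the highest is that of Kdm6b at 13.8.

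All 6 peaks lay away from called histone marks of their own cell type. Genes with an OLIG2 called peak had a median length of 58.0 kb in OPCs and 51.3 kb in NFOs against 17.4 kb over all protein-coding genes. The part of gene length in these counts was not tested. E-boxes of the form CAGCTG or CAGATG, searched on both strands, were in none of the 6 peaks, and over all called peaks CAGCTG was in 14.1% in OPCs and 10.4% in NFOs and CAGATG in 19% and 17.5%. The longest run of a single A or T base was 28 bases at Ezh1, 29 at Kdm6b, 30 at Suz12, 15 at Eed, and 8 and 7 at Kmt2a. Over all called peaks the median longest run was 15 bases in both cell types, and 66.9% of OPC peaks and 67.4% of NFO peaks had a run of at least 12, as did 4 of these 6. The run at Eed was thus of median length. Bases marked as repeats in the reference made up 100% of the Ezh1 peak and 20% of the Kdm6b peak in OPCs, where the median called peak had 28.7% and 21.7% of called peaks had over 50%. In NFOs they made up 87.3% at Suz12, 33.1% at Eed, and 44.1% and 18.2% at Kmt2a, where the median was 33.9% and 28.2% of called peaks had over 50%. The part of such runs and repeats in these peaks was not tested.

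RNA bound by OLIG2 was measured apart from the chromatin. Of transcripts from the 9 genes, 0 had a RIP-Seq site, in the OLIG2 list or in the IgG list. The lists are sparse, with sites in 2.53% and 2.55% of protein-coding genes, and 0.433% of protein-coding genes had a site above IgG by the criteria of the study (more than 2 times the IgG tags, a p-value of the site under 0.01, and a transcript RPKM over 1). Binding to transcripts of the 9 genes was thus not detectable in these sparse lists.

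The other genes of the pathway were read from a list of 48, with 8 genes of PRC2, 19 of PRC1, 5 demethylases and 16 of the COMPASS and trithorax complexes. Called H3K4me3 was near a TSS of 47 of them in NSCs, 48 in OPCs and 34 in NFOs, against 62.7%, 60.4% and 38.6% of protein-coding genes. H3K27me3 was near 8, 8 and 6 of the 48 by stage, against 9.5%, 12.8% and 7.67% of protein-coding genes. The share of protein-coding genes with it in at least 1 stage was not computed. Of the 48 genes, 12 had it in at least 1 stage. Of these 12, 10 were PRC1 genes, among them Pcgf1, Pcgf5, Cbx7, Phc2, Phc3, Rybp, Scmh1, Bcor and L3mbtl2, 1 was the PRC2 gene Epop, 1 the H3K4 demethylase gene Kdm5c and 0 of 16 were of COMPASS and trithorax. With a fold enrichment above 5 the counts by stage fell to 2, 4 and 2, and at 1 kb from a TSS to 4, 4 and 3. Some of the peaks were narrow, such as 274 bp at Phc3 and at L3mbtl2 in NSCs and 174 bp at Pcgf5 in OPCs. Others were wide, such as 13905 bp at Pcgf1 in NSCs. Among the 9 genes, 4 had called H3K27me3 near a TSS in at least 1 stage. These were the PRC1 genes Bmi1, Cbx2 and Cbx8, in OPCs and NFOs, and the PRC2 gene Eed, in NSCs alone. Kmt2a and Kdm6b had none called near a TSS.

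Cbx7, of the same family as Cbx2 and Cbx8, had H3K27me3 of 11.7 in OPCs and 3.67 in NFOs and none called in NSCs. Pcgf1 had H3K27me3 at all stages, with 5.40, 6.06 and 3.61, and so had Epop with 4.74, 4.43 and 4.51, Rybp with 3.68, 17.4 and 5.75, and Bcor with 8.55, 10.7 and 5.44. It was called in a single stage at 6 of the 12, in NSCs at Phc3 (3.60), Scmh1 (4.16), L3mbtl2 (3.60) and Kdm5c (4.51) and in OPCs at Pcgf5 (4.50) and Phc2 (4.24).

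By likeness over the 8 lists, taken as the Euclidean distance of log2(1 + highest fold enrichment), the nearest of the 48 to Ezh2 was Ring1 at 0.134, then Hcfc1 at 0.227. Suz12 was nearest to Kmt2b at 0.127, and Kmt2a to Rbbp5 at 0.361. Cbx2 was nearest to Epop at 2.61. Eed was nearest to Kdm5c at 0.855. Phc3 was nearest to Ezh1 and to Kdm6b, at 2.40 and 3.22. A list without a called peak entered as 0, so a peak called at only 1 gene of a pair adds much to its distance. Phc3 had H3K27me3 called near a TSS in NSCs (3.60) and Epop too (4.74), unlike Ezh1, Kdm6b and Cbx2. These pairs are thus the nearest by rank and differ in which lists held a called peak. The second in rank was Aebp2 for Ezh1 and Kdm6b, Scmh1 for Eed, Rbbp5 for Suz12, Pcgf3 for Cbx2 and Mtf2 for Kmt2a.

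OLIG2 called peaks were at 10 of the 48 genes in OPCs and 21 in NFOs, and 9 of the 48 had them in both. The matching shares of protein-coding genes were 14.9%, 25% and 8.27%. At a share of 8.27%, the lack of such a gene among the 9 members does not set the members apart. Those of the 48 with peaks in both were Jarid2, Aebp2, Pcgf2, Cbx7, Yaf2, Kdm2b, Kdm5b, Kmt2c and Setd1b. Yaf2, a partner of the RING proteins in PRC1, had the strongest, with fold enrichments of 37.2 in OPCs and 36.4 in NFOs. Cbx7 had 20.0 and 11.1, Kdm2b 14.5 and 16.8, Jarid2 11.96 and 11.6, and Setd1b 11.3 and 11.2. The remaining values were 11.1 and 12.2 at Kdm5b, 10.5 and 6.21 at Aebp2, 8.53 and 11.4 at Pcgf2, and 6.05 and 9.21 at Kmt2c. Among the 16 COMPASS and trithorax genes 2 had a peak in OPCs and 9 in NFOs, and Kmt2a, of the same group, had its peaks in NFOs alone. The NFO list was also the longer, with 14076 called OLIG2 peaks against 6566 in OPCs. Over all protein-coding genes the share with a peak was likewise higher in NFOs, at 25% against 14.9%. The part of list size and gene length in these counts was not tested.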

How the data were processed

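Genes and TSSs came from GENCODE M21, and the members and lists were chosen with earlier results of these data known. The authors mapped ChIP-Seq reads to mm10 (GRCm38) with Bowtie2, called OLIG2 peaks with SPP and broad histone peaks with MACS2, and left out blacklisted regions. For each peak the deposited lists hold its fold enrichment, a ratio over control, and the −log10 of its FDR, without read counts or depth. The deposited RIP-Seq lists, made by the authors with ASPeak, give the tag count of each site as a whole number, the p-value of each site and the RPKM of its transcript. From these, peaks were filtered (FDR below 0.05, fold enrichment above 3.5 or, for OLIG2, above 5), assigned to genes and counted in Python 3.11.15 with NumPy 2.4.6, pandas 2.3.3, pysam 0.24.0 and Matplotlib 3.10.9. Chromatin states were read within 2 kb of a TSS, and the assignment was tested on simulated data. The simulation used isolated genes with a single peak per mark and no mixed state. It thus does not cover close neighbours such as Cbx2 and Cbx8 or mixed genes. With 1 library per group no test was made, and samples were grouped by title. Named were the 9 genes, genes of the list of 48 with called H3K27me3 near a TSS in any stage or OLIG2 called peaks in both cell types, and the 2 nearest genes to each of the 9. Some genes of these lists are not reported here. Promoters came from RefSeq (GRCm38.p6). The 3 input libraries were not used.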

Additional observations from a re-analysis of the deposited data

How the results depend on the processing

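Of 59 values recomputed for the 9 genes, 46 stayed within 1.5 times the count reported and 13 moved, and the cause was not tested beyond the construction of each alternative. With a histone fold enrichment above 5, called H3K4me3 in NFOs fell to 3 genes (Eed, Bmi1 and Kmt2a), H3K27me3 to 0 in NSCs and 0 in NFOs, and bivalent domains to 0 in NSCs and 0 in NFOs, while the H3K27me3 of OPCs remained at Bmi1 and Cbx8. With all listed peaks, H3K27me3 and bivalent domains in NSCs rose to 3 genes each, with Cbx2 and Kmt2a beside Eed. An overlap of at least 200 bp left 1 bivalent domain in OPCs (Cbx8), and the outermost TSS alone left H3K27me3 in NSCs at 0 genes. With peaks anywhere in the gene counted too, an alternative chosen after seeing the data, H3K27me3 in NSCs rose to 3 genes (Eed, Ezh1 and Kmt2a) and bivalent domains in NFOs to 2 (Bmi1 and Cbx8). An OLIG2 fold enrichment above 10 left 1 gene in OPCs (Kdm6b) and 0 in NFOs. At 1 kb from a TSS no count of the 9 genes moved past 1.5 times, though Kdm6b in OPCs and NFOs and Kmt2a in NFOs lost their mark and Cbx8 in NFOs became K4 only. For the list of 48, 40 values stayed and 16 moved. RIP-Seq sites above IgG stayed at 0 of 9 genes in every setting. No paired analysis was possible because the labels carry no replicate numbers that groups share and each group is 1 library, and for the same reason no replicate could be left out. Depth is unknown, so absence from a list limits what can be said of any gene near the filter, such as Suz12 and Cbx8 in NFOs.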
